A study of Homo sapiens with 2 samples.

Results

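Kinesins are motor proteins that walk along microtubules, and the kinetochore is the protein assembly that ties each chromosome to the microtubules of the mitotic spindle. The genes of both families were collected by symbol: every row named KIF followed by a digit or CENP followed by one letter, together with NDC80, NUF2, SPC24 and SPC25, with 1 CENP row left out. The name matched 67 rows, and 57 of them held at least 10 unique molecular identifiers (UMIs) over both libraries, out of 17896 genes that reached this minimum and 36601 rows in all. By role, the 57 rows were 11 mitotic kinesins, 22 centromere and kinetochore genes and 20 other kinesins. The rest were 2 CENP rows set apart from these classes, CENPJ and CENPV, and 2 rows that carry the KIF name without being a kinesin. The 10 rows below the minimum were the mitotic kinesins KIF2B and KIF4B, the other kinesins KIF17, KIF21B, KIF26B, KIF5A, KIF7 and KIF19, and the antisense rows KIF26B-AS1 and KIF25-AS1. Just inside the minimum was KIF26A, with 11 UMIs in the LNCaP_FGC library and 2 in that of LNCaP_C4-2B, and just outside it were KIF17 with 9 and 0, KIF7 with 8 and 1, and KIF21B with 5 and 4.

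The levels come from single-cell RNA-Seq of LNCaP_FGC, a human prostate carcinoma line established from a lymph node metastasis, and of its castration-resistant derivative LNCaP_C4-2B, which was selected in mice. Both were in steady-state growth in RPMI1640 with 10% FBS and penicillin and streptomycin, with no further treatment. Each line was measured in 1 library of 1850 cells, so there are no replicates, cells are not replicates, and no significance test was run. The libraries carry different batch labels, so line and batch cannot be told apart. Intervals are 95% intervals that cover counting error only.

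The deposited UMI counts summed to 35150013 in LNCaP_FGC and 35149989 in LNCaP_C4-2B, after the authors had thinned both to a mean of 19000 per cell, and levels are given as CPM, UMIs scaled to the same total in every library or group of cells. No cell barcode was shared by the libraries. All 9 luminal prostate markers examined were present in both lines, with a summed level of 2968 CPM in LNCaP_FGC and 5218 CPM in LNCaP_C4-2B. The basal markers KRT5 and TP63, the leukocyte markers PTPRC and CD3D and the fibroblast marker DCN were at 0 UMIs in both. Other members of these lists were present at low counts. In LNCaP_FGC and LNCaP_C4-2B, the basal marker KRT14 had 25 and 21 UMIs and the leukocyte marker CD68 had 50 and 74. Of the endothelial markers, PECAM1 had 1 and 0 UMIs and VWF 122 and 32. The summed fibroblast list stood at 22.1 CPM in LNCaP_FGC and 1.42 CPM in LNCaP_C4-2B. It was mostly ACTA2 in LNCaP_FGC, with 600 UMIs beside 177 of COL1A1. In LNCaP_C4-2B ACTA2 had 20 UMIs and COL1A1 had 30.

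In dividing cells, mitotic kinesins build and focus the spindle, move chromosomes to its centre and cut the daughter cells apart, while other kinesins carry vesicles, organelles and cilium cargo whether or not a cell divides. At the centromere, the histone variant CENPA marks the site, a constitutive set of CENP proteins (the CCAN) sits on it, and the NDC80 complex (NDC80, NUF2, SPC24, SPC25) binds the microtubule ends. Transcripts of mitotic genes are known to be held down in G1 and to rise towards mitosis, through promoter elements such as the cell cycle genes homology region (CHR, TTTGAA) and CCAAT.

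Promoter sequence was available from RefSeq (GRCh38.p14) for 50 of the 57 genes, as windows from 250 bases before to 50 bases after each transcript start. TTTGAA, on either strand, was found in 8 of 11 mitotic kinesins (72.7%), 7 of 19 centromere and kinetochore genes (36.8%) and 1 of 18 other kinesins (5.56%), beside 18.2% of all 27305 genes with a window. CCAAT on either strand was found in 9 of 11, 11 of 19 and 7 of 18, beside 39.7% of all genes, and both elements together in 7, 4 and 1, beside 7.26%. The E2F-type words TTCCCGC and TTGGCGC, searched on both strands, were found in 0 and 3 mitotic kinesins, 4 and 0 centromere and kinetochore genes, and 2 and 2 other kinesins, beside 7.82% and 3.66% of all genes. A match is a stretch of letters and not a shown binding site. The 100 bases upstream of the start are given here for the mitotic kinesins and centromere genes with 1 window and a whole TTTGAA within those bases. They are also given for the first window of KIF22, whose levels differ from those of the other mitotic kinesins. Each runs 5′ to 3′ on the gene's strand, and capitals mark TTTGAA or CCAAT on either strand (TTCAAA and ATTGG are their reverse complements).
CENPA (chr2:26785956-26786055, plus strand): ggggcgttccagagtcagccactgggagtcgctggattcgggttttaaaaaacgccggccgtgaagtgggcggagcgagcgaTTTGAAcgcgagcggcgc
KIF15 (chr3:44761694-44761793, plus strand): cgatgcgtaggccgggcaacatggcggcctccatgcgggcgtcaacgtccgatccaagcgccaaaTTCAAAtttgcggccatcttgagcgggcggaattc
CENPC (chr4:67545504-67545603, minus strand): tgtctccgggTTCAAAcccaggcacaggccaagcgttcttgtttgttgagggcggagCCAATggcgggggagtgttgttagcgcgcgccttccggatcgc
KIF11 (chr10:92593030-92593129, plus strand): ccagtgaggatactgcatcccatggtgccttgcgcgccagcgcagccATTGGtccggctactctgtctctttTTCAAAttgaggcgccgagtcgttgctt
KIF18A (chr11:28108157-28108256, minus strand): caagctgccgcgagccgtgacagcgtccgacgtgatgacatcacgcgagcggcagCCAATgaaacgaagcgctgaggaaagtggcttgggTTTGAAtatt
KIF23 (chr15:69414249-69414348, plus strand): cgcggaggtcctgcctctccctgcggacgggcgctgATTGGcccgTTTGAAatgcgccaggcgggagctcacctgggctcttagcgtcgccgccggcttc
KIF22 (chr16:29790651-29790750, plus strand): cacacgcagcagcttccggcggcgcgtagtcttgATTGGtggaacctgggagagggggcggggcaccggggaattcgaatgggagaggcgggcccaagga
KIF4A (chrX:70290004-70290103, plus strand): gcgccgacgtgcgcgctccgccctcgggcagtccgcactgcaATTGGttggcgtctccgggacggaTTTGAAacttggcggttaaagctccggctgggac
In these stretches TTTGAA began 28 bases before the start in KIF11, 10 bases before it in KIF18A, 34 in KIF4A and 18 in CENPA, counted to the first base of the match. KIF14, KIF18B and KIF20B held TTTGAA after the start, at bases 2, 3 and 25, with another copy at base 31 in KIF20B. NUF2, CENPO and CENPF held it after the start too, at bases 17, 37 and 41. In NDC80 and SPC25 a match began 3 bases before the start and ran past it. SPC25 had another copy 247 bases before the start. Of the other kinesins, KIF5B, the ubiquitous conventional kinesin heavy chain, was the one with TTTGAA.

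Cell cycle phase was called in each library from 42 S and 45 G2M genes, none of them a kinesin or centromere gene described here. LNCaP_FGC held 789 G1 cells (42.6%, interval 40.4 to 44.9), 455 S cells (24.6%, 22.6 to 26.6) and 606 G2M cells (32.8%, 30.6 to 34.9). LNCaP_C4-2B held 905 G1 cells (48.9%, 46.6 to 51.2), 383 S cells (20.7%, 18.9 to 22.6) and 562 G2M cells (30.4%, 28.3 to 32.5). A phase is a range of 2 scores, and 51 LNCaP_FGC and 53 LNCaP_C4-2B cells lay within 0.02 of the cut that separates G1. Median UMIs per cell moved with phase, at 17497, 19472 and 18771.5 in G1, S and G2M of LNCaP_FGC and 15729, 20860 and 18710 in LNCaP_C4-2B. CPM divides by the UMIs of the same cells.

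Mitotic kinesins were the class with the highest median rise from G1 to G2M among the 3 classes in both lines. The median G2M level was 18.4-fold the G1 level in LNCaP_FGC and 15.8-fold in LNCaP_C4-2B, while the median gene stood at 1.03-fold and 1.06-fold. A gene was called higher or lower if its ratio differed from the median gene's by 1.5-fold or more. By that rule 10 of 11 mitotic kinesins were higher in G2M in LNCaP_FGC, where 13.7% of all genes tested were, and 11 of 11 in LNCaP_C4-2B, where 12% were. None was lower, beside 12.8% and 12.7% of all genes. The single exception was KIF22 in LNCaP_FGC.

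KIF11, the motor that pushes spindle poles apart (chromosome 10, 92574105 to 92655395), went from 4.004 CPM in G1 to 44.3 in S and 84.9 in G2M in LNCaP_FGC. In LNCaP_C4-2B the KIF11 levels were 5.82, 47.2 and 81.5 CPM. The G2M level was therefore 21.2-fold (16.3 to 28.1) and 13.99-fold (11.3 to 17.6) the G1 level, with the S level between them in both lines. KIF20A, a motor of the central spindle and cytokinesis (chromosome 5, 138178719 to 138187723), had the steepest step after S: 2.00, 15.0 and 86.3 CPM in LNCaP_FGC and 1.57, 5.81 and 35.3 CPM in LNCaP_C4-2B. Its G2M level was 5.74-fold (4.79 to 6.92) and 6.08-fold (4.50 to 8.38) its S level, the highest of the 11 in both lines. KIF18B, a motor that shortens astral microtubules, had nearly the same level in S and G2M of LNCaP_FGC, at 18.9 and 20.6 CPM, against 0.621 CPM in G1. Its G1 level rests on 9 UMIs, and on 8 in LNCaP_C4-2B.

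KIF2C, the microtubule depolymerase MCAK that corrects wrong attachments at the centromere, was at 1.66, 18.9 and 47.9 CPM in G1, S and G2M of LNCaP_FGC and at 2.16, 29.4 and 99.2 CPM in LNCaP_C4-2B. KIF14, a cytokinesis motor, rose from G1 to G2M by 37.0-fold (25.4 to 56.0) in LNCaP_FGC cells and by 13.5-fold (10.4 to 17.9) in LNCaP_C4-2B. The G1 level of KIF14 was 1.93 CPM against 3.92 CPM. KIF23, the central spindle motor MKLP1, rose 18.1-fold and 20.2-fold, and KIF15, which helps KIF11 hold the poles apart, 18.4-fold and 17.2-fold. KIF4A, a chromosome-bound motor of the central spindle (chromosome X, 70290104 to 70420886), rose 13.4-fold and 7.89-fold. Its near-identical copy KIF4B held 4 UMIs in each library, and reads of the copies cannot be told apart with certainty. KIF18A, which damps chromosome movement at the spindle centre, went from 30 to 371 UMIs between the G1 and G2M cells of LNCaP_FGC and from 16 to 291 in LNCaP_C4-2B.

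KIF22, the chromokinesin Kid that pushes chromosome arms outwards (chromosome 16, 29790727 to 29805385), had a different profile in the lines. In LNCaP_FGC it was at 134.8 CPM in G1, 149 in S and 160.3 in G2M, a G2M level 1.19-fold (1.12 to 1.27) that of G1. In LNCaP_C4-2B the levels were 42.1, 95.6 and 112 CPM, and the G2M level was 2.66-fold (2.42 to 2.93) that of G1. The lines were farthest apart in G1 cells, where the LNCaP_C4-2B level was 0.312-fold (0.285 to 0.341) that of LNCaP_FGC, against 0.699-fold (0.650 to 0.750) in G2M cells. At an equal depth of 11901 UMIs per cell, KIF22 was seen in 72.0% of LNCaP_FGC G1 cells (68.5 to 75.3) and 35.3% of LNCaP_C4-2B G1 cells (31.9 to 38.8). Without thinning the shares were 80.6% and 43.98%. KIF22 thus made up 5164 of the 15505 UMIs of mitotic kinesins in LNCaP_FGC, and the summed level of the class is also given without it, a choice made after its values were seen.

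**Figure D1:**
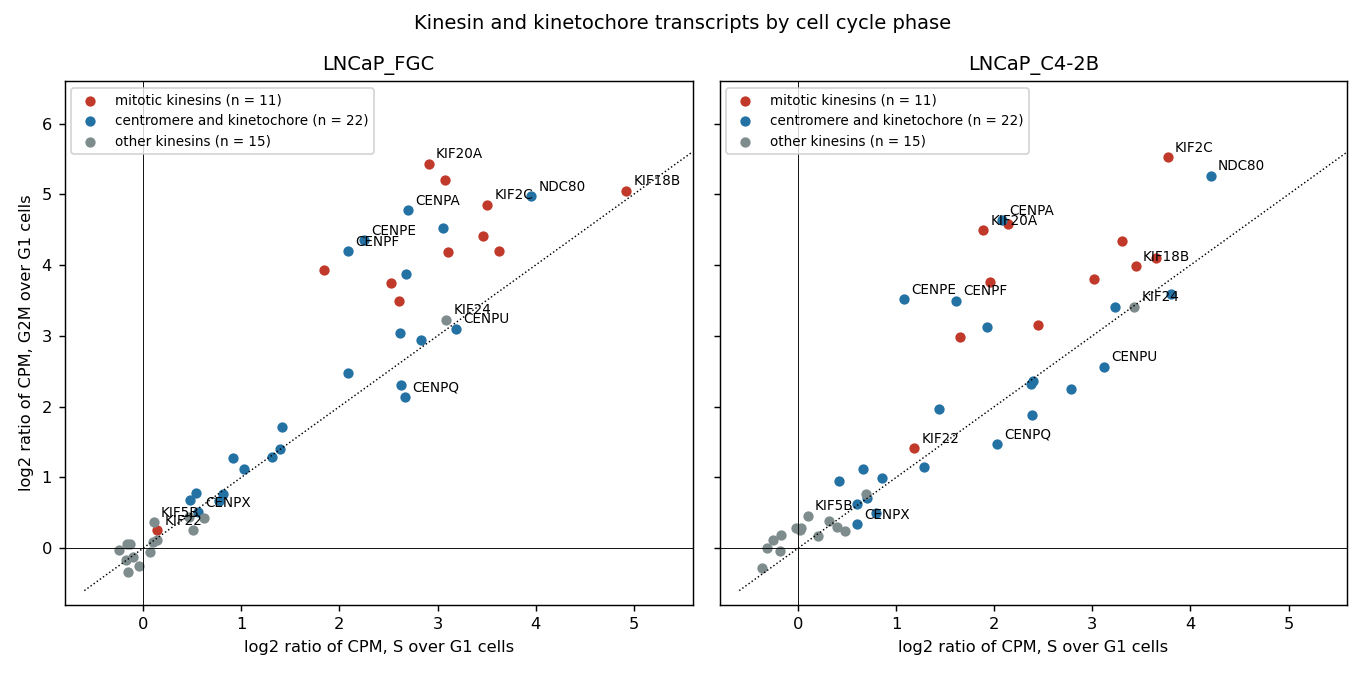
S over G1 (x axis) against G2M over G1 (y axis) for the genes with at least 100 UMIs in the line shown, LNCaP_FGC or LNCaP_C4-2B, as log2 ratios of CPM, coloured by class, with a dotted line where both ratios are equal. Mitotic kinesins other than KIF22 and the NDC80 complex lie above 0 on both axes, with SPC24 the lowest of that complex on the y axis. The other kinesins lie near 0 on both axes apart from KIF24. KIF22 lies near 0 in LNCaP_FGC, at 1.19-fold in G2M over G1, and higher in LNCaP_C4-2B, at 2.66-fold.

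Centromere and kinetochore genes rose with division too, with a lower median and with a peak divided between S and G2M. The median G2M level was 4.67-fold the G1 level in LNCaP_FGC and 4.32-fold in LNCaP_C4-2B, and 21 of 22 and 19 of 22 genes were higher. The S level was 4.26-fold and 3.42-fold the G1 level at the median. In the comparison of S with G1, 19 of 22 were higher in either line, where 14% and 13.4% of all genes tested were higher. The same S over G1 count was 10 of 11 mitotic kinesins in LNCaP_FGC and 11 of 11 in LNCaP_C4-2B.

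The phase with the highest level was G2M for all 11 mitotic kinesins in both lines, as for 37% of all genes with at least 100 UMIs in LNCaP_FGC and 41.3% in LNCaP_C4-2B. Among the centromere and kinetochore genes it was G2M for 15 and S for 7 in LNCaP_FGC, and G2M for 12 and S for 10 in LNCaP_C4-2B, with the same phase in both lines for 15 of 22. S was the highest phase for 27.2% of all genes in LNCaP_FGC and 29.1% in LNCaP_C4-2B. Of the 11 mitotic kinesins, 8 were higher in G2M than in S in either line, beside 8.95% of all genes in LNCaP_FGC and 10.4% in LNCaP_C4-2B. For the centromere and kinetochore genes this count was 6 of 22 and 5 of 22. The genes CENPU and CENPQ were lower in G2M than in S in LNCaP_C4-2B, where 8.8% of all genes were, and none was lower in LNCaP_FGC, where 9.06% were.

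Genes of the outer kinetochore and its corona were among those with the largest G2M levels over G1. NDC80, the microtubule-binding subunit that names its complex (chromosome 18, 2571557 to 2616635), was at 3.11, 48.2 and 97.6 CPM in G1, S and G2M of LNCaP_FGC and 2.88, 53.2 and 110.7 CPM in LNCaP_C4-2B. This was 31.4-fold (23.3 to 43.3) and 38.5-fold (28.5 to 53.2) from G1 to G2M, the highest of the class in both lines. The other subunits of the complex did not share one size of change. NUF2, the partner of NDC80 in the coiled-coil head, rose 23.0-fold (16.9 to 32.0) in LNCaP_FGC cells and 8.70-fold (7.40 to 10.3) in LNCaP_C4-2B, SPC25 rose 14.7-fold and 10.6-fold, and SPC24 5.56-fold and 5.15-fold. SPC24 and SPC25 form the end of the complex that faces the chromosome.

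CENPF, a large corona protein (chromosome 1, 214603185 to 214664574), stood at 46.9, 199.9 and 858.6 CPM in LNCaP_FGC and 73.6, 225.6 and 832.3 CPM in LNCaP_C4-2B. CENPE, a kinetochore motor of the kinesin family, stood at 12.1, 57.7 and 248.1 CPM and at 16.7, 35.4 and 191.3 CPM. CENPA went from 1.24 CPM in G1 to 8.08 in S and 34.1 in G2M in LNCaP_FGC, and from 1.83 to 7.75 and 45.5 in LNCaP_C4-2B. In CPM, each of these 3 genes gained more between S and G2M than between G1 and S. CENPE was 4.30-fold higher in G2M than in S in LNCaP_FGC, the highest of its class there, and CENPA 5.87-fold in LNCaP_C4-2B.

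The genes of the constitutive network named here differed in range and in the phase of their highest level. CENPU, a subunit of the CCAN that recruits the kinase PLK1, went from 22.2 CPM in G1 to 203.2 in S and 191 in G2M in LNCaP_FGC, and from 16.7 to 144.4 and 98.4 in LNCaP_C4-2B. CENPQ, of the same subcomplex, was at 15.1, 96.0 and 66.4 CPM and at 8.18, 33.4 and 22.7 CPM, the lowest G2M over S ratio of the class in both lines (0.691 and 0.681). CENPX, a histone-fold protein that also acts in DNA repair, was at 167.3 CPM already in G1 of LNCaP_FGC, and its G2M over G1 ratio was the lowest of the class, 1.42-fold and 1.26-fold. CENPC, which links CENPA to the rest of the network, was 1.61-fold and 1.63-fold higher in G2M than in G1, and CENPT 1.71-fold and 1.92-fold. CENPI, by contrast, had 23 UMIs in G1 cells of LNCaP_FGC and 154 in G2M cells, and 11 and 101 in LNCaP_C4-2B.

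The shares of cells with a UMI at equal depth are given for KIF11, NDC80 and CENPF, and for these 3 they increased from G1 to S to G2M in both lines. KIF11 was seen in 4.15% of G1 cells (2.80 to 5.90), 37.3% of S cells and 58.2% of G2M cells (53.8 to 62.5) of LNCaP_FGC, and in 6.42%, 38.3% and 58.1% in LNCaP_C4-2B. NDC80 was seen in 3.29%, 37.8% and 57.8% of LNCaP_FGC cells and in 2.31%, 41.6% and 64.3% of LNCaP_C4-2B cells. CENPF was seen in 25.5%, 78.0% and 99.2%, and in 38.0%, 80.4% and 99.6%. Without thinning the G1 and G2M shares in LNCaP_FGC were 6.97% and 69.6% for KIF11, 5.32% and 73.6% for NDC80, and 31.8% and 99.3% for CENPF. G1 cells are the cells in which these genes are known to be low, and free RNA and expression in G1 cells were not told apart in their shares. Of the 33 mitotic kinesin and centromere genes, a G1, S and G2M cell held UMIs of a median of 4, 12 and 16 in LNCaP_FGC and 5, 13 and 16 in LNCaP_C4-2B, and 2 of 699 and 3 of 779 G1 cells held none.

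The other kinesins showed little change with phase at the median. Their median G2M level was 1.04-fold the G1 level in LNCaP_FGC and 1.16-fold in LNCaP_C4-2B, over 18 genes with enough UMIs. In LNCaP_FGC 1 of 18 was higher (KIF24) and 1 lower (KIF3C), and in LNCaP_C4-2B 2 were higher (KIF24 and KIF2A) and 1 lower (KIF12). These counts lie near or under the share of all genes given above. KIF12 was near the floor in LNCaP_C4-2B, seen without thinning in 0.442% of G1 cells and 0.356% of G2M cells. At a minimum of 100 UMIs the lower count was 0 in both lines. The median S level was 1.01-fold and 1.05-fold the G1 level. In S over G1, 3 of 18 were higher and 1 lower in LNCaP_FGC, beside 14% and 12.2% of all genes. In LNCaP_C4-2B 4 of 18 were higher and 0 lower, beside 13.4% and 13.7%. KIF5B was at 257.8, 277.9 and 333.2 CPM in G1, S and G2M of LNCaP_FGC and at 234.9, 251.5 and 322.4 CPM in LNCaP_C4-2B, and was seen in 92.7% to 97.7% of the cells of each phase and line at equal depth. KIF1B, a carrier of mitochondria and synaptic vesicle precursors, was 1.07-fold (0.976 to 1.17) and 1.18-fold (1.08 to 1.30) its G1 level in G2M, and KIF3A, a motor of cilium transport, 1.05-fold (0.923 to 1.18) and 0.997-fold (0.861 to 1.15). Both intervals of KIF3A include 1.

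KIF24, a depolymerase of the mother centriole that restrains cilium formation, stood apart in both lines, at 0.898, 7.63 and 8.42 CPM in LNCaP_FGC and 0.719, 7.75 and 7.67 CPM in LNCaP_C4-2B. The G2M level was 9.38-fold (5.24 to 18.2) and 10.7-fold (5.68 to 22.1) that of G1, from 13 and 11 UMIs in G1 cells. KIF2A, the depolymerase related to KIF2C that also acts at spindle poles, was 1.34-fold (1.20 to 1.496) and 1.70-fold (1.53 to 1.89) its G1 level. The 15 other kinesins with at least 100 UMIs in both lines had no common peak: the highest phase was G1 for 5, S for 6 and G2M for 4 in LNCaP_FGC, and 3, 4 and 8 in LNCaP_C4-2B, with the same phase for 6 of 15. G1 was the highest phase for 35.8% and 29.6% of all genes.

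**Figure D2:**
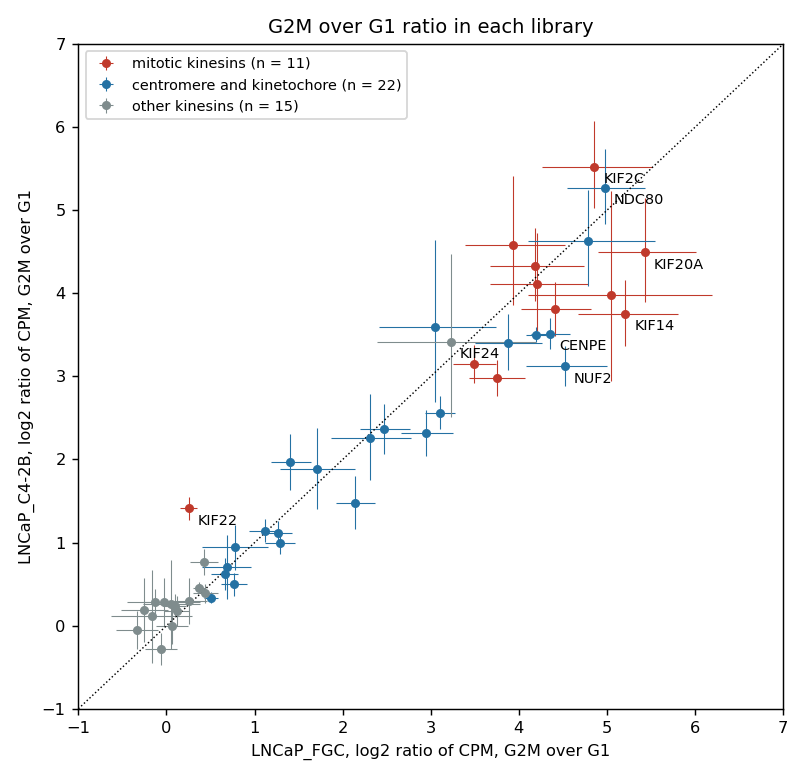
G2M over G1 ratio in LNCaP_FGC (x axis) against LNCaP_C4-2B (y axis) for the genes with at least 100 UMIs in both, as log2 ratios of CPM with exact 95% intervals, coloured by class, with a dotted line of equal values. Mitotic kinesins reach 43.1-fold (KIF20A, LNCaP_FGC) and 46.0-fold (KIF2C, LNCaP_C4-2B), and the other kinesins gather near 0 apart from KIF24.

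As a graded measure of proliferation, the cells of each library were ranked by the share of their UMIs in the same S and G2M genes and divided into 5 quintiles of 370 cells. That share rose from 0.187% in the bottom quintile to 1.63% in the top quintile of LNCaP_FGC and from 0.164% to 1.31% in LNCaP_C4-2B. The bottom quintile held G1 cells only in both lines, and the middle quintile held 69 G1 cells in LNCaP_FGC and 171 in LNCaP_C4-2B. Median UMIs per cell were 17948 in the bottom and 19779 in the top quintile of LNCaP_FGC, and 14896 and 21259 in LNCaP_C4-2B.

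Mitotic kinesins without KIF22 summed to 16.1, 42.6, 188, 379 and 815 CPM from the bottom to the top quintile of LNCaP_FGC, and to 13.6, 43.5, 158, 384 and 697 CPM in LNCaP_C4-2B. Centromere and kinetochore genes summed to 351 CPM in the bottom and 2912 in the top quintile of LNCaP_FGC, and to 400.3 and 2617 in LNCaP_C4-2B. Other kinesins summed to 732 and 910.0 CPM, and to 583 and 812 CPM. The sums of the dividing-cell classes thus differed between the ends by more than those of the other kinesins in both lines.

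Between the ends of the ranking, 10 of 11 mitotic kinesins and 22 of 22 centromere and kinetochore genes were higher in the top quintile in LNCaP_FGC, where 19.5% of all genes tested were. In LNCaP_C4-2B 11 of 11 and 21 of 22 were higher, where 18.4% were. Of the other kinesins 3 of 17 were higher and 4 lower in LNCaP_FGC, where 17.2% of all genes were lower, and 3 of 18 were higher and 1 lower in LNCaP_C4-2B, where 20.4% were lower. The level rose at each step along the ranking for 9 of 11 mitotic kinesins in LNCaP_FGC and 11 of 11 in LNCaP_C4-2B, for 17 and 14 of 22 centromere and kinetochore genes, and for 4 of 15 other kinesins in either line. Of all genes with at least 100 UMIs, 11.9% rose at each step in LNCaP_FGC and 11.1% in LNCaP_C4-2B.

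KIF11 ran through 1.59, 4.91, 24.6, 53.5 and 117.3 CPM in LNCaP_FGC and 2.07, 6.73, 18.0, 60.1 and 98.1 CPM in LNCaP_C4-2B. CENPA had 1 UMI in the bottom quintile of LNCaP_FGC and 4 in that of LNCaP_C4-2B, and reached 40.8 and 49.4 CPM in the top quintile. CENPU rose from 7.38 to 267.5 CPM over the quintiles of LNCaP_FGC, while in LNCaP_C4-2B it stood at 129.3 CPM in the next to top and 128.5 in the top quintile. KIF22 did not follow the ranking in LNCaP_FGC, where it was at 153.2, 121.7, 129, 139.5 and 189.1 CPM, and its top quintile was 1.23-fold (1.14 to 1.34) the bottom quintile. In LNCaP_C4-2B it was at 36.9, 41.8, 60.9, 101.5 and 129.6 CPM, a ratio of 3.52-fold (3.03 to 4.09).

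**Figure D3:**
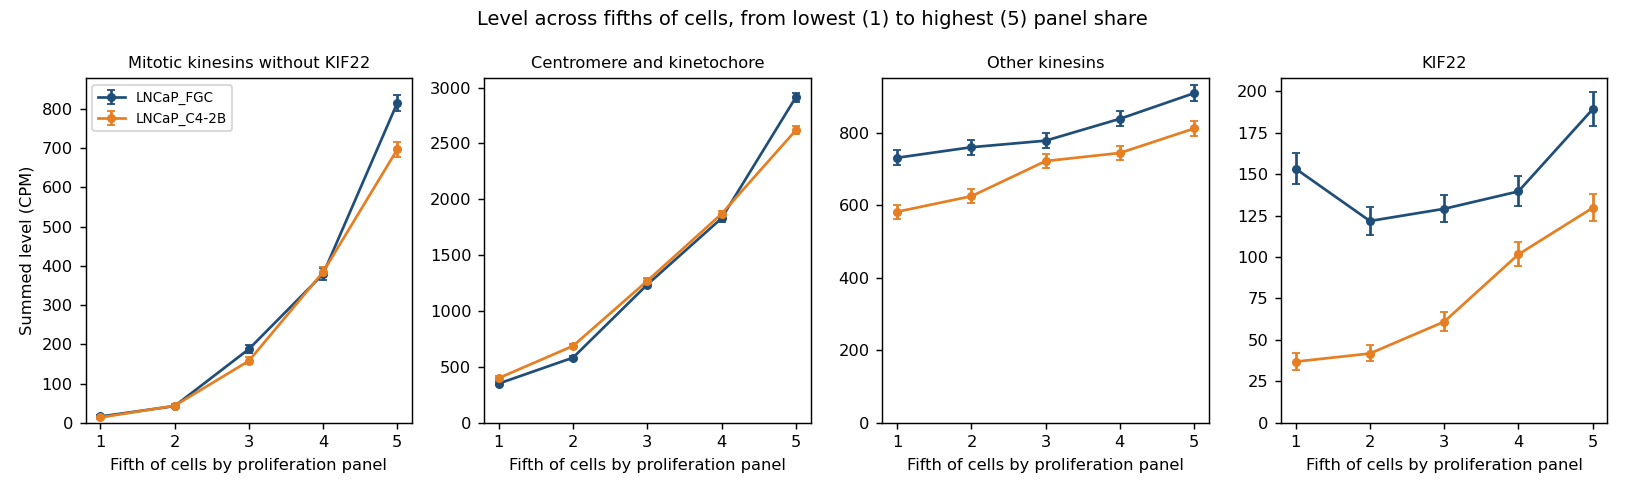
Summed level in CPM, on a linear axis from 0, over the 5 quintiles of cells ranked by proliferation share from lowest (1) to highest (5), for mitotic kinesins without KIF22, centromere and kinetochore genes, other kinesins and KIF22, in LNCaP_FGC and LNCaP_C4-2B, with exact Poisson 95% intervals as bars. The first 2 classes climb at every step in both lines. The other kinesins climb at every step too, over a narrower range, from 731.7 to 910.0 CPM in LNCaP_FGC and from 582.6 to 812.4 CPM in LNCaP_C4-2B. KIF22 lies between 121.7 and 189.1 CPM in LNCaP_FGC and climbs from 36.9 to 129.6 CPM in LNCaP_C4-2B.

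The lines were also compared over all cells. The ratio of LNCaP_C4-2B to LNCaP_FGC had a median of -0.49 on the log2 scale over all genes, so ratios are read against that value. Against it, 3 of 11 mitotic kinesins were higher in LNCaP_C4-2B and 2 lower, 10 of 22 centromere and kinetochore genes were higher and 1 lower, and 4 of 20 other kinesins were higher and 4 lower. Of all genes tested, 26% were higher and 26.4% lower by the same rule. The medians of the 3 classes were -0.33, -0.03 and -0.30 on the CPM scale, and they turned positive (0.13, 0.43 and 0.16) when the libraries were scaled by TMM factors, which put the median gene at -0.03. The counts, which are set against the median gene, do not move with the scaling.

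The mitotic kinesins that were higher in LNCaP_C4-2B were KIF2C, KIF23 and KIF4A. KIF2C was counted 755 times in LNCaP_FGC cells and 1427 times in LNCaP_C4-2B cells, a ratio of 1.89-fold (1.73 to 2.07). KIF23 had 693 and 1016 UMIs and KIF4A 1422 and 1840. Those that were lower were KIF18B, at 419 and 151 UMIs (0.360-fold, 0.297 to 0.435), and KIF20A, at 1177 and 482 UMIs (0.409-fold, 0.368 to 0.456). KIF11 was nearly level on the CPM scale, with 1451 and 1424 UMIs. Motors of cytokinesis therefore lay on both sides: KIF23 at 1.47-fold and KIF20A at 0.409-fold.

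Among centromere genes, CENPM, a CCAN subunit (chromosome 22, 41938737 to 41947152), was counted 1584 times in LNCaP_FGC cells and 2851 times in LNCaP_C4-2B cells, 1.80-fold (1.69 to 1.91). CENPT, which binds the NDC80 complex, had 338 and 604 (1.79-fold, 1.56 to 2.05), NUF2 1065 and 1642 (1.54-fold, 1.43 to 1.67), and CENPX 7407 and 11331 (1.53-fold, 1.49 to 1.58). CENPH, CENPA, CENPS, CENPW, NDC80 and SPC25 were also counted as higher. CENPS shares its locus with the CENPS-CORT readthrough transcript, so its reads may be divided. The gene counted as lower was CENPQ (chromosome 6, 49463370 to 49493107), with 1854 and 665 UMIs (0.359-fold, 0.328 to 0.392). CENPL, at 1127 and 543 UMIs, CENPC, at 616 and 327, and CENPU, at 4378 and 2590, came next in order and stayed inside 1.5-fold of the median gene. CENPF was level, with 12554 and 12645 UMIs, and the 4 subunits of the NDC80 complex ran from 0.877-fold for SPC24 to 1.54-fold for NUF2.

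Of the other kinesins, KIF13B, a vesicle carrier at the cell cortex, was counted 259 times in LNCaP_FGC cells and 520 times in LNCaP_C4-2B cells (2.01-fold, 1.73 to 2.34), and KIF21A, a motor that restrains microtubule growth, 2380 and 3158 (1.33-fold, 1.26 to 1.40). KIF16B, a carrier of early endosomes, had 428 and 157 (0.367-fold, 0.304 to 0.441), and KIF13A, a carrier of recycling endosomes, 659 and 293 (0.445-fold, 0.386 to 0.511). The other genes counted, KIF25 and KIF12 as higher and KIF6 and KIF26A as lower, held at most 28 UMIs in either library. KIF1A, the neuronal vesicle carrier, had 1189 and 600 UMIs and KIF1C 2257 and 1364, neither past the limit. KIF5B was at 10127 and 9409 UMIs, and the heterodimer partners KIF3A and KIF3B were at 0.702-fold and 0.691-fold.

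Of the rows outside these classes, CENPJ, a builder of centrioles, was counted 446 times in LNCaP_FGC cells and 945 times in LNCaP_C4-2B cells (2.12-fold, 1.89 to 2.38) and was 5.203-fold and 4.12-fold higher in G2M than in G1. CENPV, a protein of the spindle midzone and chromosomes (chromosome 17, 16342534 to 16353656), had 211 UMIs against 9, so that LNCaP_FGC was 23.4-fold (12.1 to 52.0) higher, the widest ratio of any gene described here with at least 100 UMIs. In LNCaP_FGC its level was much the same in every phase, at 5.52, 6.73 and 6.04 CPM in G1, S and G2M. KIF1BP, a kinesin-binding protein and no motor, had 1728 and 1724 UMIs, and KIF9-AS1, which overlaps KIF9 on the other strand, 142 and 156.

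**Figure D4:**
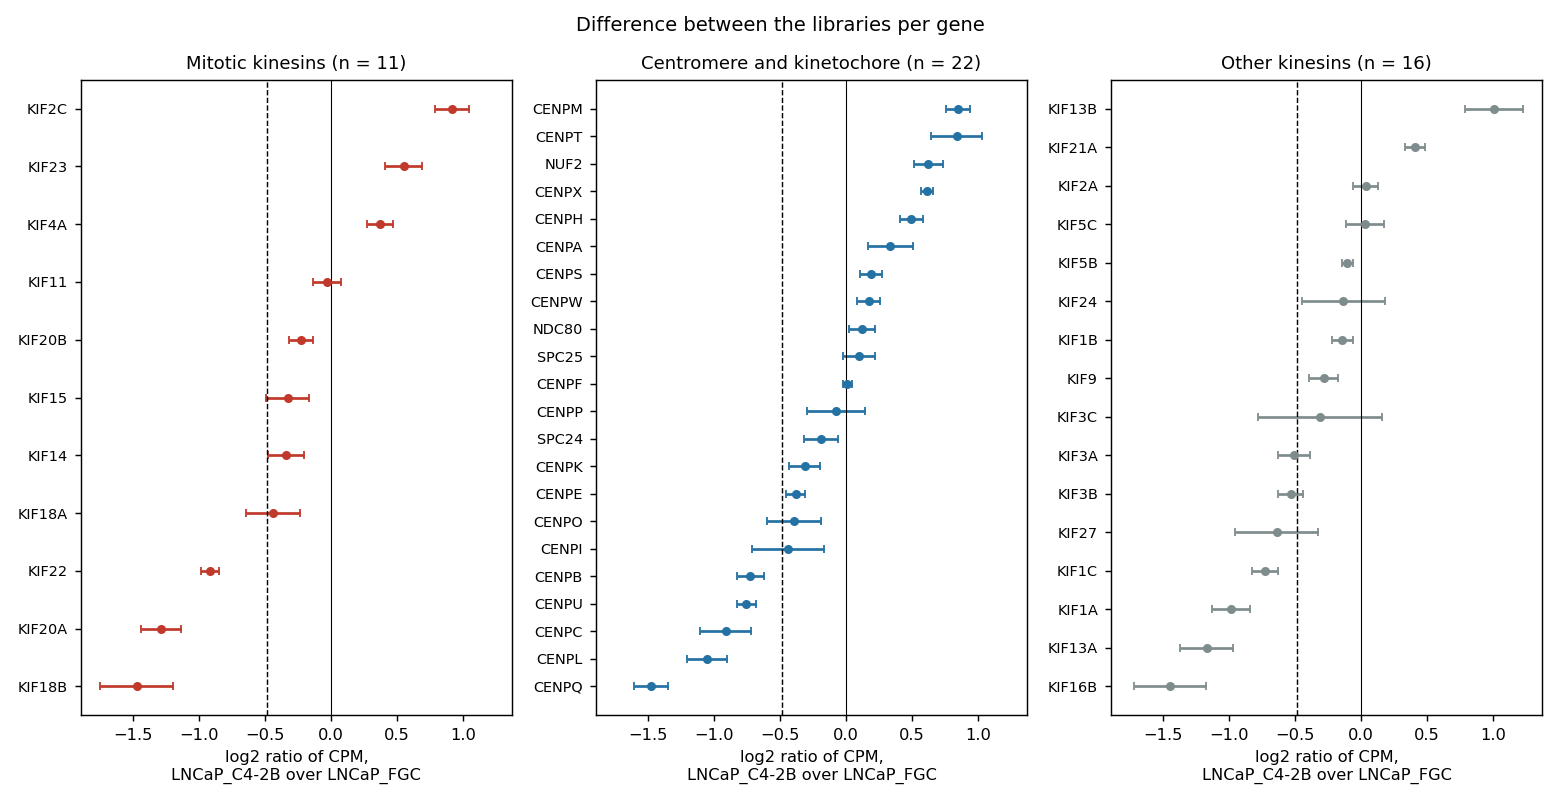
Ratio of LNCaP_C4-2B to LNCaP_FGC for the genes with at least 100 UMIs, as log2 ratios of CPM with exact 95% intervals, by class, with a dashed line at the median of all genes (-0.49) and a solid line at 0. KIF2C, CENPM and KIF13B are the highest of their classes (1.89-fold, 1.80-fold and 2.01-fold) and KIF18B, CENPQ and KIF16B the lowest (0.360-fold, 0.359-fold and 0.367-fold).

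Within a phase, the ratio no longer depends on how many cells of each line were in that phase. It can still depend on which cells the phase holds, since phases were called in each library apart. Of the G1 cells, 69 in LNCaP_FGC and 171 in LNCaP_C4-2B lay in the middle quintile of the proliferation ranking. In G2M cells, 3 of 11 mitotic kinesins were higher in LNCaP_C4-2B and 2 lower, 8 of 22 centromere and kinetochore genes were higher and 1 lower, and 7 of 19 other kinesins were higher and 2 lower, where 25.5% and 25% of all genes were. In S cells the counts were 3 and 2, 10 and 2 of 22, and 4 and 5 of 20, where 24.8% and 25.4% were. In G1 cells 5 mitotic kinesins were higher and 1 lower, 12 of 22 centromere and kinetochore genes were higher and 2 lower, and 3 of 20 other kinesins were higher and 4 lower, where 27.5% of all genes were higher and 27.5% lower. With both libraries scored together for phase, 3 mitotic kinesins were lower in G1 cells, and the median log2 ratio of centromere and kinetochore genes in G1 cells was -0.10 in place of 0.26. Under that scoring 9 of 22 centromere and kinetochore genes were higher in G1 cells in place of 12, and 6 mitotic kinesins in place of 5.

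The genes with the widest ratios over all cells kept their direction in G2M cells. KIF2C was 2.07-fold (1.87 to 2.30) in G2M cells, KIF18B 0.402-fold (0.314 to 0.511), KIF20A 0.410-fold (0.364 to 0.460), CENPM 1.74-fold (1.59 to 1.92) and CENPQ 0.343-fold (0.297 to 0.395). Other genes differed with the phase. NUF2 was 3.75-fold (2.67 to 5.36) higher in LNCaP_C4-2B among G1 cells, from 43 and 170 UMIs, and 1.42-fold (1.29 to 1.55) among G2M cells. KIF4A was 2.18-fold (1.70 to 2.82) among G1 cells and 1.28-fold (1.18 to 1.39) among G2M cells, and KIF14 was 2.03-fold (1.28 to 3.30) and 0.742-fold (0.667 to 0.824). CENPF was 1.57-fold (1.43 to 1.73) among G1 cells and 0.969-fold (0.943 to 0.997) among G2M cells. These differences between phases have no test with 1 library per line. In the all-G1 bottom quintile, mitotic kinesins without KIF22 summed to 16.1 CPM in LNCaP_FGC and 13.6 in LNCaP_C4-2B. Over all G1 cells they summed to 34.1 and 45.5 CPM. Centromere and kinetochore genes summed to 351 and 400 CPM in the bottom quintile and to 515 and 674 over all G1 cells. The parts of free RNA and of the unlike spread of G1 cells over the ranking in these G1 levels were not tested.

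The genes that work with kinesins and centromeres, 40 of 41 listed with at least 10 UMIs, followed the dividing-cell classes. In G2M over G1, 30 of 40 were higher in LNCaP_FGC and 31 of 40 in LNCaP_C4-2B, where 13.7% and 12% of all genes were. None was lower, beside 12.8% and 12.7% of all genes. Since 8 of them belong to the gene lists that called the phases, the counts outside those lists were 22 of 32 and 23 of 32. KNL1, the scaffold that joins the checkpoint to the kinetochore, was 35.8-fold and 12.04-fold higher in G2M than in G1, and KIFC1, a minus-end motor of the spindle, 39.4-fold and 23.0-fold. The light chains of conventional kinesin were not among those counted: KLC1 was 0.836-fold and 0.992-fold. Between the lines, 16 of 40 were higher in LNCaP_C4-2B and 3 lower, and 10 of 32 and 3 of 32 outside the lists, where 26% of all genes were higher and 26.4% lower. The higher count outside the lists is near that share. The lower genes were SPDL1, which brings dynein to the kinetochore, at 4640 and 1342 UMIs, MIS12, a subunit that carries the NDC80 complex, at 1654 and 639, and ZWILCH, a subunit of the RZZ complex of the corona, at 2572 and 1053.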

How the data were processed

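Single cells of LNCaP_FGC and LNCaP_C4-2B were profiled with 10x Genomics 3′ chemistry, 1 library per line. The submitters' processing notes name Cell Ranger 6.0, Seurat 5.011 and the GRCh38 build. The authors filtered cells on detected genes, total reads, a doublet score and the shares of mitochondrial, ribosomal and hemoglobin reads, took 1850 cells of each line and downsampled them to a mean of 19000 counts per cell. The deposited values are therefore UMI counts after downsampling, and the original depth is not stated in these sources. No further cell filter and no doublet caller were applied. LNCaP_FGC cells held 8988 to 51088 UMIs, with a median of 18292, LNCaP_C4-2B cells 9593 to 48630, with a median of 17566.5, and 1 UMI equals 0.0284 CPM.

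UMIs of all cells in a library, phase or quintile were added up, scaled to CPM and compared as ratios with exact conditional 95% intervals. Levels had exact Poisson intervals and shares exact Clopper-Pearson intervals. All cover counting error only. Each ratio was computed for every gene with at least 10 UMIs over the groups compared, and a gene was counted where it lay at least 1.5-fold from the median gene. The ratio script was tested on simulated data. CellCycleScoring of Seurat 5.3.0, run in R 4.3.3 on each library apart, called the phases on genes seen in at least 3 cells, with the genes described here taken out of its lists. For shares of cells, cells were brought to 11901 UMIs each, the percentile 10 in LNCaP_C4-2B, which kept 1623 and 1665 cells and left out 90, 50 and 87 LNCaP_FGC and 126, 15 and 44 LNCaP_C4-2B cells of G1, S and G2M. TMM factors came from edgeR 4.0.16, used for scaling only, and the rest was computed in Python 3.11.15 with numpy 2.4.6, scipy 1.17.1 and pandas 2.3.3.

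Gene positions are from GENCODE release 44 and were found for 66 of 67 rows. Genes were picked for naming by the 4 highest and 4 lowest line ratios of each class and the 6 highest G2M over G1 and S over G1 ratios of each library, all at 100 UMIs or more. A fixed set was added: the NDC80 complex, CENPA, CENPE, CENPF and 15 kinesins. Of these genes KIF5C is not described, and the line ratios of KIF2A, KIF18A and KIF22 over all cells are not printed. Values of other genes were added after they were seen. The genes, roles and lists were chosen with earlier results of these data known, and KIF1BP was set apart from the kinesins once its symbol was seen in the files. The alternatives were other scalings, minimum counts, phase calls, rankings and depths.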

Additional observations from a re-analysis of the deposited data

How the results depend on the processing

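No leave-one-out value can be had, and no paired analysis was possible because each line has 1 library. Of the values recomputed under alternatives, 288 moved by less than their error or stayed within 1.5 times, and 27 moved further; the cause was not tested except where the alternative itself, through another scaling or fewer genes, sets it. The median log2 ratio between the lines went from -0.33 to 0.13 with TMM factors and 0.15 with median-of-ratios factors for mitotic kinesins, and from -0.30 to 0.16 and 0.18 for other kinesins. For centromere and kinetochore genes it went from -0.03 to 0.12 with totals without ribosomal protein and mitochondrial genes, 0.43 with TMM factors and 0.45 with median-of-ratios factors. The median gene moved from -0.49 to -0.33, -0.03 and -0.01 under these scalings. At a minimum of 100 UMIs, 2 centromere and kinetochore genes were lower in LNCaP_C4-2B in place of 1, and 2 other kinesins were higher and 2 lower in place of 4 and 4. The count of centromere and kinetochore genes higher in LNCaP_C4-2B was 8 in place of 10 there, a move within 1.5 times. The median S over G1 log2 ratio of centromere and kinetochore genes was 2.34 in LNCaP_FGC and 2.15 in LNCaP_C4-2B with phases from panel shares, in place of 2.09 and 1.77. In LNCaP_FGC, the count of other kinesins lower in G2M than in G1 went from 1 to 2 with the full Seurat lists and with panel shares and to 0 at 100 UMIs, and the count lower in S than in G1 from 1 to 2 with both libraries scored together, with panel shares and at equal depth, and to 0 at 100 UMIs. In LNCaP_C4-2B, the count lower in G2M went from 1 to 0 at equal depth and at 100 UMIs, and the count higher in S from 4 to 2 under the same settings. With cells ranked by G2M genes only, 2 other kinesins were lower in the top quintile in either line, in place of 4 and 1. In G1 cells, 3 mitotic kinesins were lower in LNCaP_C4-2B with both libraries scored together, in place of 1, and 1 centromere and kinetochore gene with the full Seurat lists, in place of 2. Counts of mitotic kinesins higher in G2M over G1, 10 and 11 of 11, were the same under all 5 alternatives. Genes with few UMIs in G1 cells or in the bottom quintile have wide intervals, and their folds are limited by depth.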
